A study of Mus musculus with 8 samples.

Results

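The genes described here are 39 mouse genes of programmed cell death, of 55487 gene identifiers in the deposited tables. They were listed by symbol: the BCL2 family, caspases, death receptors and their adaptors, necroptosis and inflammasome genes, and the p53 axis. Each symbol had 1 Ensembl identifier, and the transcript rows under it were summed in every sample. RNA was sequenced from epididymal white adipose tissue (a visceral fat depot) of 8 male C57BL/6 mice made obese with a high-fat diet. The 4 AKO mice (numbers 3, 8, 9 and 11) carried AP2-Cre and both floxed copies of Slc16a1, the gene of the lactate carrier MCT1, and their genotype label is Slc16a1 -/-. The 4 WT mice (numbers 2, 3, 4 and 5) carried the same floxed copies without Cre, so presence of Cre and the intended deletion cannot be told apart. AP2-Cre is driven by the promoter of Fabp4, a fat cell gene that macrophages can also transcribe. The sources used here give no ages or feeding times. The comparison asks how death gene transcripts of obese fat differ with this genotype.

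Cells can die in an ordered, silent way or by bursting. In the intrinsic pathway BH3-only proteins, several of them induced by p53, set free the pore formers BAX and BAK from BCL2-like guards. Mitochondria then leak cytochrome c, and APAF1 assembles the complex that activates caspase-9. In the extrinsic pathway TNF-family receptors activate caspase-8 through FADD. When caspase-8 is held back, RIPK1 and RIPK3 can instead drive necroptosis through MLKL. Inflammasomes activate caspase-1, which cuts gasdermin D into a membrane pore, the lytic death called pyroptosis. In obese fat, macrophages gather in crowns around dying fat cells. Transcript levels do not measure the cleavage or assembly that starts any of these deaths.

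Values are TPM, an abundance scaled for transcript length and library total, summed per gene. A difference is the AKO mean minus the WT mean of log2(TPM + 1), tested with limma (moderated linear models) over the 14172 genes at 1 TPM or more in at least 4 mice. FDR is the Benjamini-Hochberg adjusted p over all of these genes, with a threshold of 0.05. Errors are SD over 4 mice per group, and single mice are given in the order AKO 3, 8, 9, 11 and WT 2, 3, 4, 5. TPM keeps no read depth, so depth is unknown. Between 13968 and 14884 genes per library reached 1 TPM.

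Slc16a1, summed over its rows, was no lower in AKO libraries than in WT libraries. It was 22.4, 21.5, 27.1 and 25.03 TPM in the AKO libraries, against 23.4, 28.5, 15.7 and 17.6 TPM in the WT libraries, a log2 difference of 0.19 (limma FDR = 0.85). The labels could thus not be checked by the target's total, and every direction given below is between libraries labelled AKO and WT. Over all genes, 3 were higher and 1 was lower in AKO at the threshold. The marker genes of fat cells were present, with all 15 adipocyte markers at 1 TPM or more in every mouse.

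Promoter sequence was available from RefSeq for 35 of the 39 genes, on build GRCm38.p6, as 250 bases before to 50 bases after the gene's start. Gsdmd, Tradd, Tnfrsf10b and Pmaip1 had no entry. Shown here are the promoters of Pycard and Casp1, the 2 genes with the steepest slopes on macrophage markers below. Also shown are those of Bax and Mdm2, textbook p53 targets that rose with those markers. The slopes of the p53 targets Cdkn1a and Pmaip1 did not pass the threshold. Capitals mark matches to the p53 half-site consensus, and in Pycard also ACTTCCTC, the reverse strand of the PU.1 motif GAGGAAGT. Pycard lies at chr7:127993818-127994117 on the minus strand, Casp1 at chr9:5298267-5298566 on the plus strand, Bax at chr7:45466849-45467148 on the minus strand and Mdm2 at chr10:117710709-117711008 on the minus strand.
Pycard: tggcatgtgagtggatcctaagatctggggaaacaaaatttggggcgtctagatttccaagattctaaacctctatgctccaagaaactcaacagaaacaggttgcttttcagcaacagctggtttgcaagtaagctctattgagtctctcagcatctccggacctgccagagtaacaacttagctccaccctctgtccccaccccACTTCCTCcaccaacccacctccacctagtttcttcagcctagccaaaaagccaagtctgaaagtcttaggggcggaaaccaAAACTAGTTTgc
Casp1: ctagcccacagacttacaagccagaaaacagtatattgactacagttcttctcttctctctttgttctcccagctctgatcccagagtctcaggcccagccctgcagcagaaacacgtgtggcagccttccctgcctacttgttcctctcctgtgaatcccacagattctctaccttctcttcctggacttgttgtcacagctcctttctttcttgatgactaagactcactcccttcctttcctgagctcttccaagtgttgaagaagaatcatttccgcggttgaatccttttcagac
Bax: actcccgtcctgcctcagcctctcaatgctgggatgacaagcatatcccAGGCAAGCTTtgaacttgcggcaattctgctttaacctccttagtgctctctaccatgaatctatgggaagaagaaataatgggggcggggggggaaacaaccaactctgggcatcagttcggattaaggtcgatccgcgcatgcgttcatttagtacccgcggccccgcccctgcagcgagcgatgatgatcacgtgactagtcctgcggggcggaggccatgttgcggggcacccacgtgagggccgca
Mdm2: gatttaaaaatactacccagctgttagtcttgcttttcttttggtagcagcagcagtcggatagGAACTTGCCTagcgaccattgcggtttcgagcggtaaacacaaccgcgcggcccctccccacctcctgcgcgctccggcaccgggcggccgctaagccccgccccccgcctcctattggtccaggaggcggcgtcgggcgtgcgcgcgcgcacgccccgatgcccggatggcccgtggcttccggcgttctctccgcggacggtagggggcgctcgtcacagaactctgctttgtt
The half-site match began at base 39 after the start in Pycard, and 201 and 186 bases before the start in Bax and Mdm2. The PU.1 motif, searched on both strands, began 44 bases before the start of Pycard. Casp1 held neither. The 35 genes had 50 promoters in the table. A half-site match was found in 8 of these 50, 1 each of Bax, Birc2, Bmf, Cdkn1a, Mdm2, Nlrp3, Pycard and Trp53, against 8.36% of all 32851 promoters. GAGGAAGT was found in 3 of the 50, of Bad, Bak1 and Pycard, against 3.20% of all promoters. Other motifs were searched too. The NF-kB consensus was found in 7 of the 50, against 4.51% of all promoters, and the IRF motif in 2, against 3.44%. A TATA box was found in 3 of the 50, against 13.62% of all promoters, and a GC box in 28, against 35.66%. All of these are matches of letters in a window and not binding sites.

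Levels differed widely between the genes, with Tnfrsf1a, Mcl1 and Cdkn1a highest and Nlrp3 lowest. Of the 39 genes, 27 averaged 10 TPM or more over the 8 mice. The TNF receptor gene Tnfrsf1a was highest at 162.5 TPM (coefficient of variation 4.58% over 8 mice), followed by Mcl1 at 116.5 TPM and Cdkn1a at 107.3 TPM. Nlrp3, the sensor of the best known inflammasome, was lowest at 0.714 TPM and was the single gene under the filter. The coefficient of variation reached 20% or more in 10 genes and stayed below 10% in 8. WT mouse 4 was the lowest of the 8 mice for 17 of the 39 genes, and WT mouse 3 was the highest for 11.

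**Figure D1:**
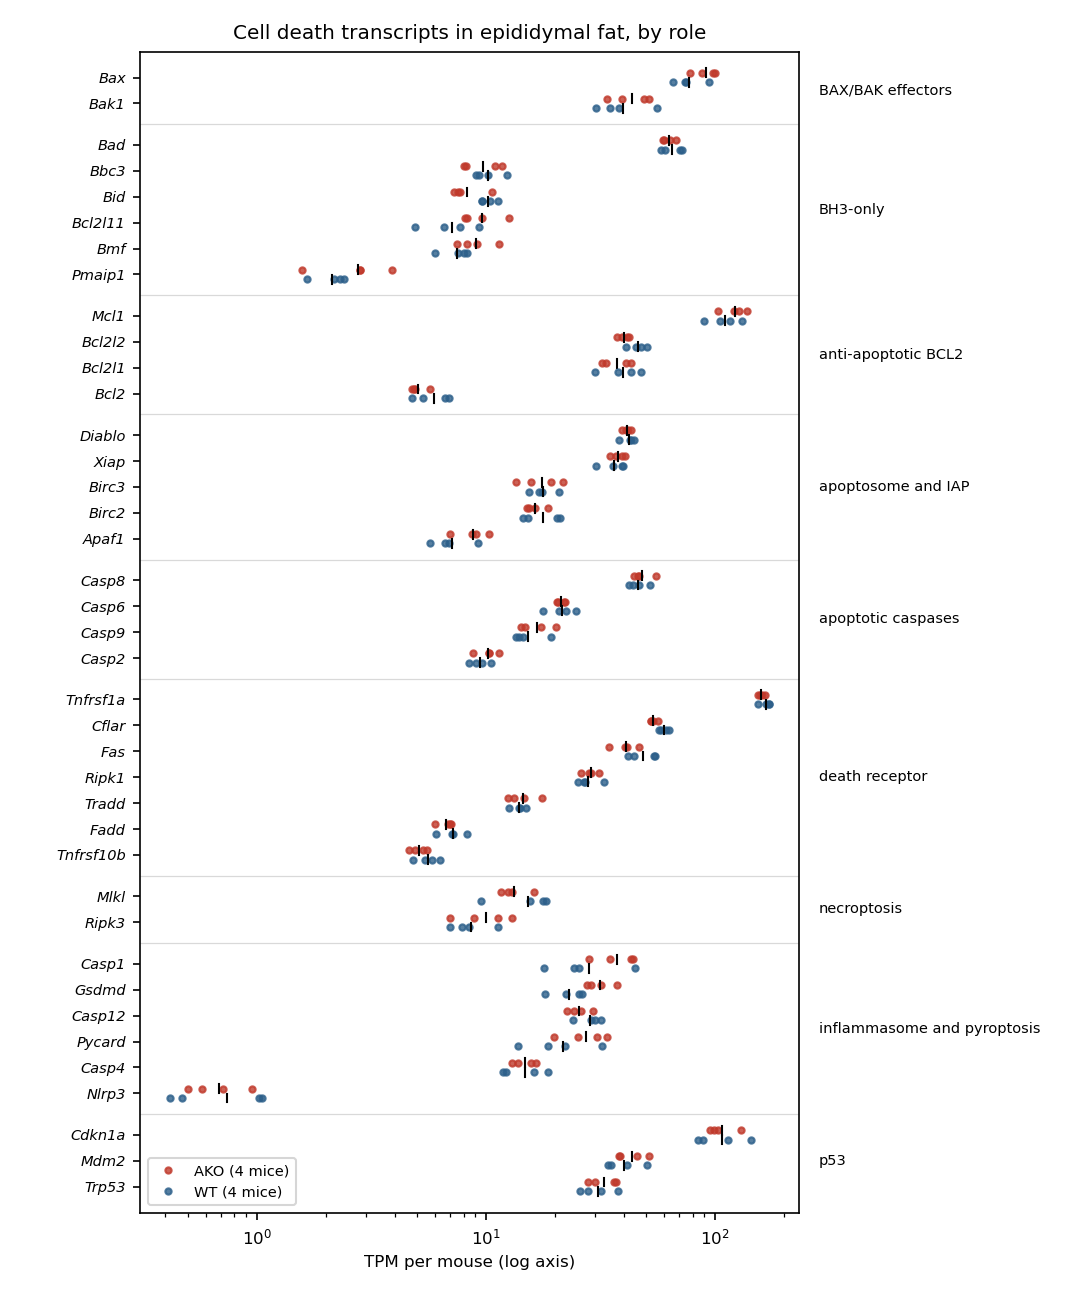
TPM of each of the 39 cell death genes in every mouse on a log axis, grouped by role, with AKO mice (red) drawn above WT mice (blue) and a black tick at each group mean. Levels run from under 1 TPM for Nlrp3 to above 100 TPM for Tnfrsf1a, Mcl1 and Cdkn1a, and the groups overlap for most genes.

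No cell death gene passed the threshold between AKO and WT. Of the 38 genes tested, 0 had an FDR below 0.05 in limma, where 0.0282% of all genes did, and the lowest FDR among them was 0.831. At an unadjusted p below 0.05 there were 2 of 38, Gsdmd and Bcl2l2, against 4.75% of all genes. The log2 difference was positive for 21 genes and negative for 17, with a median of 0.028 against 0.015 over all genes. The groups did not overlap for 2 of 38 genes (5.26%), Gsdmd above and Cflar below WT, against 2.44% of all genes. The 95% interval of the difference lay within 1 log2 unit of 0 for 37 genes and within 0.5 for 25. The exception was Casp1, whose interval reached 1.05.

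**Figure D2:**
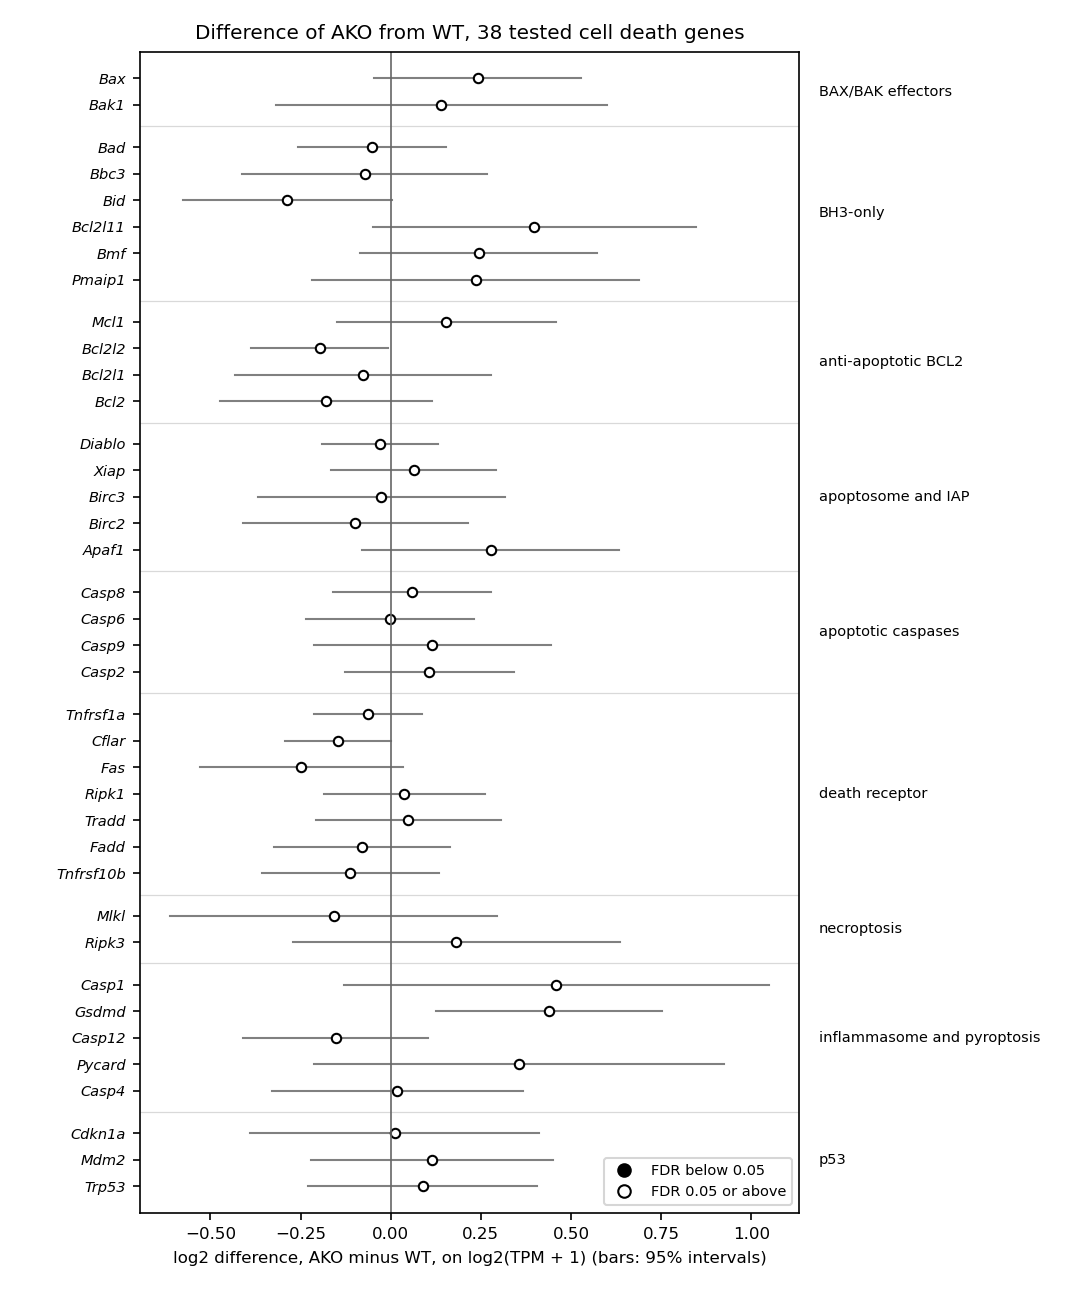
Log2 difference, AKO minus WT, of the 38 tested cell death genes with 95% intervals, grouped by role. All points are open because none has an FDR below 0.05, and the largest positive differences are those of Casp1 (0.46), Gsdmd (0.44) and Bcl2l11 (0.40).

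The pore-forming effectors were higher on average in AKO, within the spread between mice. Bax had 99.99, 87.8, 98.3 and 77.9 TPM in AKO mice, against 75.1, 94.05, 65.5 and 73.8 TPM in WT mice, a log2 difference of 0.24 (95% interval -0.04 to 0.53, limma FDR = 0.831). Bak1, the second effector, had 51.5, 33.8, 49.03 and 39.3 TPM in AKO mice and 34.7, 55.9, 30.3 and 38.2 TPM in WT mice, a log2 difference of 0.14. WT mouse 3 lay inside the AKO range for Bax and above it for Bak1, and the groups overlapped for both. Bax supplied 62.7% to 72.2% of the effector TPM in every mouse. In the M21 annotation 25.5% of Bak1's exonic bases overlap Ggnbp1 on the opposite strand and 12.2% of Bax's overlap the predicted gene Gm45808 on the same strand. The sources used here do not state whether reads were counted by strand, so the Bak1 total may hold reads of Ggnbp1, and counting by strand would not separate Bax from Gm45808.

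Among the BH3-only genes, whose products sense damage and switch the effectors on, Bad was far above the rest and Pmaip1 far below. Bad, a target of growth factor signalling, had 67.8, 63.4, 60.2 and 59.6 TPM in AKO mice and 71.6, 60.6, 58.2 and 70.5 TPM in WT mice. Pmaip1, which encodes the p53 target NOXA, had 3.89, 2.82, 2.82 and 1.57 TPM in AKO mice and 2.17, 2.41, 1.66 and 2.32 TPM in WT mice. Bad thus made up 58.3% to 66.1% of the summed BH3-only TPM in each mouse. Gpr137, on the opposite strand, overlaps 20.5% of Bad's exonic bases.

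Bcl2l11, which encodes BIM, had the largest positive difference of the 6 and Bid the largest negative one. Bcl2l11 had 9.6, 8.28, 12.7 and 8.12 TPM in AKO mice, against 7.75, 9.38, 4.92 and 6.55 TPM in WT mice, a log2 difference of 0.40 (SE 0.20, limma FDR = 0.831). Bid, whose product links caspase-8 to the mitochondrion, had 10.7, 7.24, 7.54 and 7.72 TPM in AKO mice, against 9.59, 10.4, 11.3 and 9.62 TPM in WT mice, a log2 difference of -0.29 (SE 0.13, limma FDR = 0.831). AKO mouse 3 lay among the WT mice for Bid, and the 3 other AKO mice lay below every WT mouse. Bid shares 17.7% of its exonic bases with Bcl2l13 on the opposite strand. Bmf, a BH3-only gene tied to the cytoskeleton, had 11.4, 7.48, 8.26 and 9.18 TPM in AKO mice and 8.05, 6.02, 7.57 and 8.29 TPM in WT mice (log2 difference 0.24). Bbc3, which encodes PUMA, ranged from 8.07 to 11.8 TPM in AKO and from 9.09 to 12.3 TPM in WT. No gene of this group passed the threshold.

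Of the 4 anti-apoptotic guards, Mcl1 was the most abundant and the only one with a positive difference. Mcl1, a short-lived guard of BAK, had 128, 122, 138 and 103 TPM in AKO mice, against 116, 131, 89.7 and 105 TPM in WT mice, a log2 difference of 0.15 (limma FDR = 0.848). It made up 50.6% to 62.7% of the anti-apoptotic TPM of each mouse. Bcl2l2, which encodes BCL-W, had 39.3, 42.01, 37.3 and 41.3 TPM in AKO mice, against 45.2, 40.8, 50.7 and 47.6 TPM in WT mice, a log2 difference of -0.20 (SE 0.08, unadjusted p = 0.0443, limma FDR = 0.831). For Bcl2l2, 3 WT mice were above every AKO mouse, and WT mouse 3 was not. In the M21 annotation 13.3% of Bcl2l2's exonic bases overlap Gm20521 on the same strand, so its total is uncertain.

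Bcl2 itself was a minor transcript. It had 4.75, 5.73, 4.9 and 4.86 TPM in AKO mice and 6.66, 4.75, 6.93 and 5.31 TPM in WT mice, which was 2.12% to 3.91% of the anti-apoptotic TPM. Bcl2l1, the BCL-XL gene, had 32.03, 40.8, 42.9 and 33.3 TPM in AKO mice and 37.9, 47.6, 29.96 and 43 TPM in WT mice, with overlapping groups. The summed TPM of Bax and Bak1 divided by that of the 4 guards was 0.743, 0.578, 0.659 and 0.644 in AKO mice, and 0.534, 0.668, 0.541 and 0.558 in WT mice. WT mouse 3 was second highest of the 8 for this ratio.

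Of the apoptosome genes and caspase inhibitors, Apaf1 had the largest difference. Apaf1, the scaffold of the apoptosome, had 10.4, 9.07, 8.72 and 7 TPM in AKO mice, against 6.94, 9.21, 5.68 and 6.62 TPM in WT mice, a log2 difference of 0.28 (limma FDR = 0.831). Diablo, whose product SMAC relieves caspase inhibition, had 41.6, 42.8, 39.2 and 40.97 TPM in AKO mice and 38.3, 42.5, 43.1 and 44.4 TPM in WT mice. Its interval was narrow, -0.19 to 0.13 log2 units, but 40.9% of its exonic bases are shared with other annotated genes and its total is uncertain. The inhibitors of apoptosis Xiap, Birc2 and Birc3 ranged from 13.6 to 40.5 TPM in AKO and from 14.6 to 39.8 TPM in WT, and none of the 5 genes passed the threshold.

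Casp8, the initiator below death receptors, led the apoptotic caspases with 55.4, 46.1, 46.8 and 44.3 TPM in AKO mice and 46.6, 51.8, 42.1 and 43.9 TPM in WT mice. Casp2, an initiator linked to DNA damage, was lowest with 11.4, 10.3, 10.4 and 8.81 TPM in AKO mice and 9.09, 10.5, 8.46 and 9.6 TPM in WT mice. The initiator of the apoptosome, Casp9, had 17.5, 14.8, 20.1 and 14.2 TPM in AKO mice and 14.5, 19.3, 13.6 and 13.9 TPM in WT mice. In each of these genes WT mouse 3 exceeded the other WT mice. Casp6, an executioner, ranged from 20.4 to 22.1 TPM in AKO and from 17.8 to 24.7 TPM in WT (log2 difference -0.003).

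Of the 7 death receptor genes, 5 had a negative difference and none passed the threshold. Cflar, which encodes the caspase-8 brake FLIP, had 52.4, 53.8, 56.5 and 52.5 TPM in AKO mice, against 58.1, 62.97, 60.99 and 56.8 TPM in WT mice. All 4 AKO mice were below all 4 WT mice, the nearest pair being 56.5 and 56.8 TPM. The log2 difference was -0.15 (SE 0.06, 95% interval -0.29 to 0.00, limma FDR = 0.831), and 1.33% of all genes had AKO below WT without overlap. Means were 53.8 ± 1.92 TPM in AKO and 59.7 ± 2.81 TPM in WT (SD, n = 4 each). The transcript row with the highest mean, 43.7% of the gene's total, averaged 24.6 ± 1.80 TPM in AKO and 25.01 ± 2.23 TPM in WT (SD, n = 4 each), and the groups overlapped. With that row in place of the sum, the log2 difference was -0.020 (limma FDR = 0.972). In the M21 annotation 15.4% of the longest Cflar transcript lies in stretches at least 95% identical to other genes, so its total is uncertain. Fas, the receptor of Fas ligand, had 40.6, 41.3, 34.4 and 46.7 TPM in AKO mice and 41.7, 44.1, 54.2 and 54.5 TPM in WT mice (log2 difference -0.25, limma FDR = 0.831), with AKO mouse 11 inside the WT range.

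Tnfrsf1a, the main TNF receptor gene, had 160.0, 158, 165 and 153 TPM in AKO mice and 167, 172, 154 and 173 TPM in WT mice. It varied least of the 39 genes and held 48.1% to 52.3% of the group's TPM. Ripk1, the kinase at the branch between survival and death, had 28.9, 28.3, 31.3 and 26.1 TPM in AKO mice and 26.99, 32.7, 25.2 and 26.9 TPM in WT mice. Tnfrsf10b, the only mouse TRAIL death receptor, had 5.55, 4.89, 4.62 and 5.32 TPM in AKO mice and 4.8, 5.4, 6.34 and 5.85 TPM in WT mice. Of its longest annotated transcript, 17.9% lies in stretches at least 95% identical to other genes. The adaptors Fadd and Tradd ranged from 6 to 17.6 TPM in AKO and from 6.07 to 14.9 TPM in WT. The 7 genes summed to 309.0, 306.0, 316.0 and 302.6 TPM in AKO mice, below the 318.3, 338.9, 320.5 and 338.8 TPM of WT mice, which is given without a test. On the log scale the mean over the same genes was 4.717, 4.676, 4.727 and 4.653 in AKO mice. It was 4.682, 4.816, 4.771 and 4.826 in WT mice, so the groups overlapped on that scale. The sums of every other role group of the 39 genes overlapped between AKO and WT.

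The necroptosis pair was low and showed no common direction. Ripk3, the kinase of the necrosome, had 12.99, 8.89, 11.3 and 6.98 TPM in AKO mice and 6.97, 11.3, 7.84 and 8.46 TPM in WT mice (log2 difference 0.18). Mlkl, the executioner it phosphorylates, had 16.2, 12.99, 11.6 and 12.5 TPM in AKO mice and 9.5, 18.3, 15.6 and 17.8 TPM in WT mice (log2 difference -0.16). Both intervals were wide, -0.27 to 0.64 for Ripk3 and -0.61 to 0.30 for Mlkl.

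Of the pyroptosis genes, only Gsdmd had groups that did not overlap, and no gene passed the threshold. The gene of the pore former gasdermin D had 31.9, 27.7, 37.4 and 28.9 TPM in AKO mice, against 26.3, 25.4, 18.1 and 22.3 TPM in WT mice. Each AKO mouse was above each WT mouse, the nearest pair being 27.7 and 26.3 TPM. The means were 31.5 ± 4.33 TPM in AKO and 23.03 ± 3.68 TPM in WT (SD, n = 4 each), a log2 difference of 0.44 (SE 0.14, 95% interval 0.13 to 0.75). Its unadjusted p was 0.0116 and its limma FDR 0.831, and 1.11% of all genes had AKO above WT without overlap. No exonic base of Gsdmd is shared with another gene in the M21 annotation.

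Casp1, which cuts gasdermin D, had 43.2, 28.3, 43.7 and 34.8 TPM in AKO mice, against 25.5, 44.6, 17.96 and 24.2 TPM in WT mice, a log2 difference of 0.46 (SE 0.26, limma FDR = 0.831). Pycard, the adaptor ASC that joins sensors to caspase-1, had 33.8, 25.4, 30.6 and 19.9 TPM in AKO mice and 18.7, 32.03, 13.9 and 22.2 TPM in WT mice (log2 difference 0.36, limma FDR = 0.831). WT mouse 3 had the highest Casp1 and the second highest Pycard of all 8 mice. In the M21 annotation 12.8% of Pycard's exonic bases overlap Gm45205 on the opposite strand, so its total is uncertain. Nlrp3 had 0.95, 0.5, 0.71 and 0.58 TPM in AKO mice and 0.47, 1.06, 0.42 and 1.02 TPM in WT mice, and was not tested. Casp4, the mouse sensor of cytosolic lipopolysaccharide, ranged from 13.01 to 16.5 TPM in AKO and from 11.9 to 18.7 TPM in WT. Casp12, a caspase of the endoplasmic reticulum, ranged from 22.6 to 29.4 TPM in AKO and from 23.9 to 31.8 TPM in WT.

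None of the 3 p53 axis genes passed the threshold, and their groups overlapped. Trp53, the transcription factor, had 37.1, 28.01, 36.2 and 30.1 TPM in AKO mice and 28.02, 37.9, 25.8 and 31.9 TPM in WT mice. Mdm2, the ligase that p53 induces and that degrades p53, had 45.8, 38.4, 51.5 and 38.02 TPM in AKO mice and 41.5, 50.3, 34.1 and 35.1 TPM in WT mice. Cdkn1a, the cell cycle inhibitor p21, had 95.4, 99.2, 129.6 and 103 TPM in AKO mice and 84.6, 143, 88.9 and 114 TPM in WT mice. The log2 differences were 0.09, 0.11 and 0.01, with 95% intervals of -0.23 to 0.41, -0.22 to 0.45 and -0.39 to 0.41, and WT mouse 3 was highest for Cdkn1a and Trp53. In the annotation 20.2% of the longest Trp53 transcript lies in stretches at least 95% identical to other genes, so its total is uncertain.

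Macrophage and adipocyte markers ran in opposite directions across the 8 mice. The macrophage score, the mean log2(TPM + 1) of 13 marker genes that include Adgre1, Cd68, Csf1r and Lyz2, was 7.33, 7.05, 7.66 and 6.83 in AKO mice and 6.75, 7.37, 5.99 and 6.76 in WT mice. All 13 markers reached 1 TPM in every mouse, and 12 of 13 had a positive log2 difference between AKO and WT. Their summed TPM ran from 3752 to 6640 in AKO and from 2313 to 5442 in WT. The same mean over the 15 adipocyte markers was 9.57, 10.04, 9.47 and 10.06 in AKO mice and 10.11, 9.51, 10.50 and 10.17 in WT mice, lowest in AKO mouse 9 and highest in WT mouse 4. All 5 mast cell markers and all 7 fibroblast and progenitor markers also had positive log2 differences. So did 2 of 15 adipocyte markers and 1 of 6 endothelial markers. Over all genes 53.8% of differences were positive, and none of these markers passed the threshold. The mast cell list summed to between 33.9 and 92.1 TPM in AKO and between 21.8 and 51.8 TPM in WT. T cell markers summed to between 15.6 and 34.1 TPM in AKO and between 12.5 and 20.3 TPM in WT. Neutrophil markers summed to between 25.1 and 67.2 TPM in AKO and between 15.1 and 57.9 TPM in WT. Most of this was S100a8 (mean 39.9 TPM, log2 difference 0.47). S100a9 averaged 2.15 TPM with a log2 difference of -0.18, Cxcr2 and Mpo were under 1 TPM, and Ly6g was at 0 in all 8 mice. The 5 B cell markers summed to 7.0, 10.4, 7.3 and 9.6 TPM in AKO mice, against 3.9, 6.9, 6.9 and 5.3 TPM in WT mice, without overlap. Ms4a1 and Pax5 were under 1 TPM in every mouse, and Cd79a had a log2 difference of 0.59 (limma FDR = 0.831). The part of these cells in the results was not tested. In bulk tissue, more cells of a type and more RNA per cell cannot be told apart, nor can macrophage gain be told from adipocyte loss here.

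Of the 38 genes, 11 rose with the macrophage score and none fell. In a limma model with genotype as a second term, the slope was past an FDR of 0.05 and positive for 11 of 38 genes (28.9%), against 12% of all genes, and past it and negative for 0 of 38, against 4.40% of all genes. The slope was positive for 29 of 38 genes (76.3%), against 55.9% of all genes, with a median of 0.25 against 0.043 log2 units per unit of score. The FDR calls depended on single mice, while the slopes kept their sign. Leaving out 1 mouse at a time, the slope lay between 0.72 and 0.90 for Pycard, between 0.57 and 0.66 for Bcl2l11, between 0.38 and 0.44 for Mcl1 and between 0.32 and 0.46 for Bax. Without WT mouse 3 none of the 11 was kept, where 3.46% of all genes still rose, and without WT mouse 4 only Casp9 and Mdm2 were kept, where 5.90% of all genes rose. Without AKO mouse 9, 5 of the 11 were kept, and without AKO mouse 11, 6 were. Over the 8 fits that leave out 1 mouse, Gsdmd and Ripk1 lost their call in 7, Casp9 in 5, and Bax, Bcl2l11, Mcl1, Pycard and Casp1 in 2 each.

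**Figure D3:**
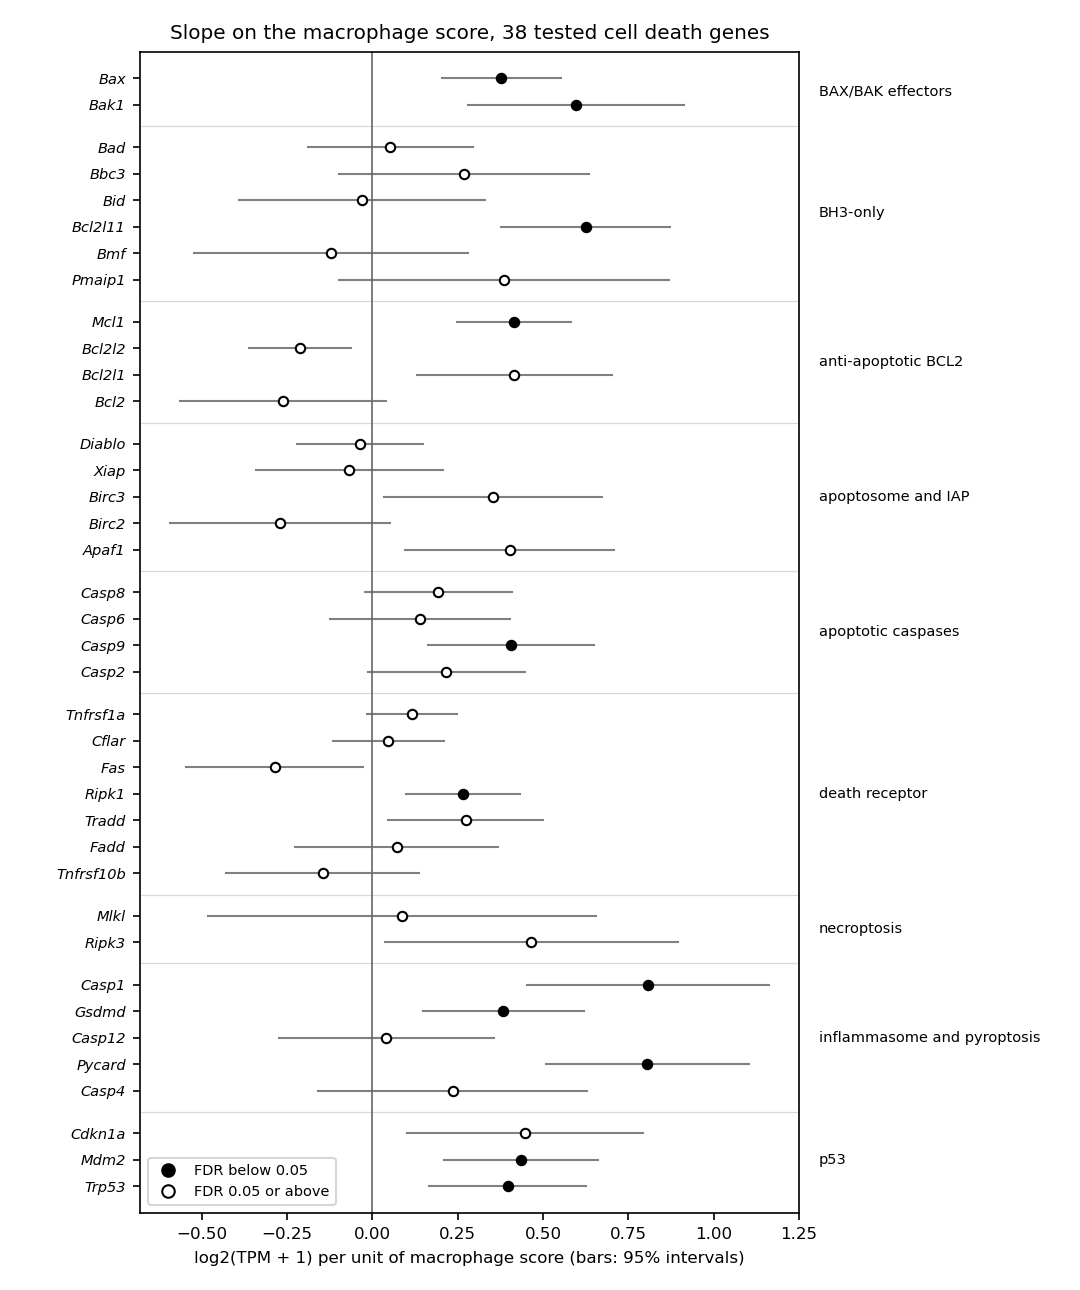
Slope of each of the 38 tested genes on the macrophage score, in log2(TPM + 1) per unit of score, with 95% intervals and genotype as a second term; filled points have an FDR below 0.05. Pycard and Casp1 have the steepest slopes, 0.81 and 0.81, and no gene with a negative slope is filled.

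The steepest slopes were in the inflammasome group. Pycard rose by 0.81 log2 units per unit of score (SE 0.13, FDR = 0.0055 over all genes in limma). Casp1 rose by 0.81 (SE 0.15, limma FDR = 0.0114), and Gsdmd by 0.38 (SE 0.10, limma FDR = 0.0386). Casp4 and Casp12 had slopes of 0.24 and 0.04 and did not pass. Across the 8 mice Pearson's r with the score was 0.925 for Casp1 (exact permutation p = 0.00104, two-sided; Spearman's rho 0.929, exact permutation p = 0.00223) and 0.873 without the 2 mice farthest from the median score, WT mouse 4 and AKO mouse 9. For Gsdmd r was 0.872 (exact permutation p = 0.00727) and rho 0.690 (exact permutation p = 0.0694), and r was only 0.436 without those 2 mice. They hold the lowest and highest scores, so leaving them out also narrows the range of the score. Leaving out 1 mouse at a time, the slope of Gsdmd lay between 0.33 and 0.50, and its call was lost in 7 of these fits. The correlations were computed for all 39 genes, pairing all 8 mice without a genotype term. Their permutation p-values are not adjusted for multiple testing. The FDR of the slopes comes from the limma model with genotype and does not adjust them.

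In the BCL2 family the genes that rose came from opposing roles. Both effectors rose, Bax by 0.38 (limma FDR = 0.0142) and Bak1 by 0.60 (limma FDR = 0.0236) log2 units per unit of score. The activator Bcl2l11 rose by 0.63 (SE 0.11, limma FDR = 0.00762), and the guard Mcl1 by 0.42 (SE 0.07, limma FDR = 0.00809). Bcl2l11 followed the score closely, with r = 0.967 (exact permutation p = 0.000124; rho 0.952, exact permutation p = 0.00114) and 0.879 without WT mouse 4 and AKO mouse 9. Mcl1 had r = 0.952 (exact permutation p = 0.000322; rho 0.905, exact permutation p = 0.00456) and 0.864 without them. Bcl2l1 had a slope of 0.42 (limma FDR = 0.0569), Bcl2l2 of -0.21 (limma FDR = 0.0608) and Bcl2 of -0.26 (limma FDR = 0.213), none past the threshold. Bad, Bid and Bmf had slopes of 0.05, -0.03 and -0.12.

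Among the remaining genes, Casp9 rose by 0.41 (limma FDR = 0.0358) and Ripk1 by 0.27 (limma FDR = 0.0428) log2 units per unit of score. In the p53 group Mdm2 rose by 0.43 (limma FDR = 0.0223) and Trp53 by 0.40 (limma FDR = 0.0322), and Cdkn1a had a slope of 0.45 (limma FDR = 0.0815). Fas and Tnfrsf1a, the receptors, had slopes of -0.29 (limma FDR = 0.127) and 0.12 (limma FDR = 0.209). Ripk3 had a slope of 0.47 (limma FDR = 0.131) and Mlkl of 0.09 (limma FDR = 0.844). The part that macrophages or fat cells had in these slopes was not tested.

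With the macrophage score held in the same model, an alternative chosen after seeing the data, the positive differences of Casp1, Bcl2l11, Bax, Apaf1, Pycard and Gsdmd were smaller and that of Bmf was not. The log2 difference was 0.05 for Casp1, against 0.46 without the score, 0.09 for Bcl2l11, against 0.40, and 0.05 for Bax, against 0.24. Pycard turned to -0.047, against 0.36 without the score. Gsdmd kept 0.25 of 0.44 log2 units, and the differences of Cflar (-0.17, against -0.15) and Bid (-0.27, against -0.29) moved little. The negative differences of Bcl2 (-0.05, against -0.18), Bcl2l2 (-0.09, against -0.20) and Fas (-0.10, against -0.25) were smaller with the score than without it. None of the 12 genes followed this way had an FDR below 0.05 in either limma fit. Each shift is fixed by the gene's slope and the score's AKO minus WT difference of 0.501. The shifts thus add nothing beyond the slopes. The score comes from the same libraries, and its part in the differences was not tested.

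**Figure D4:**
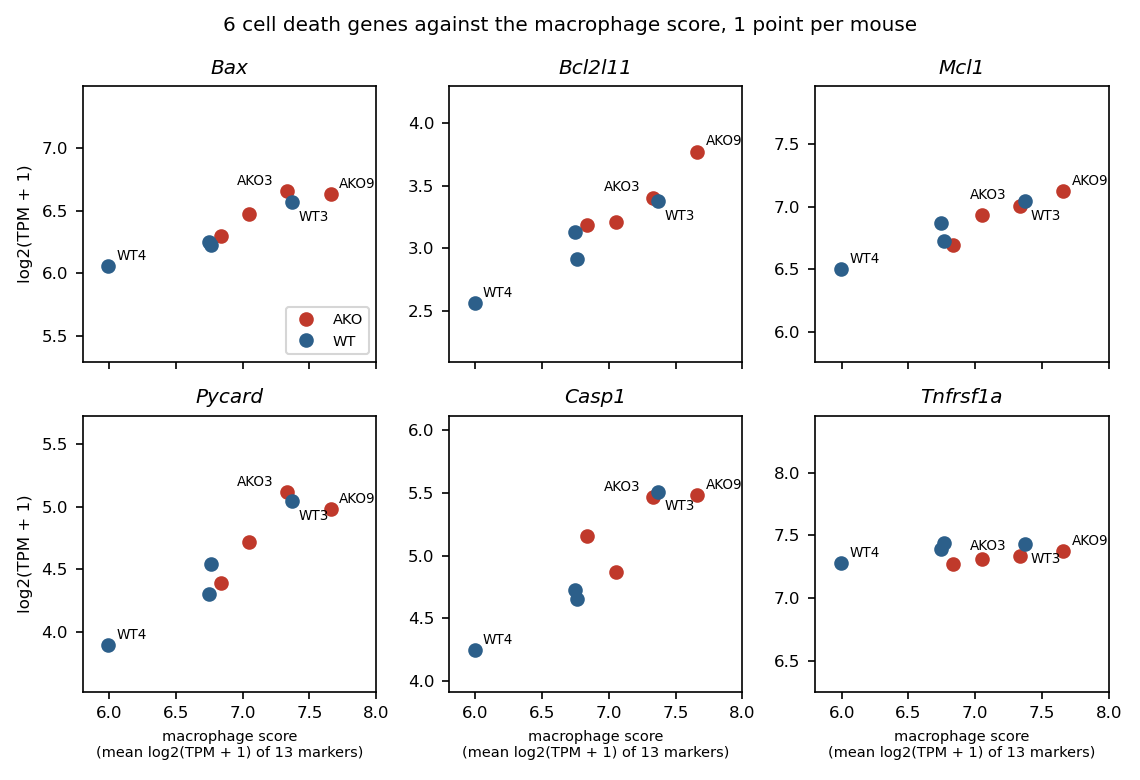
Log2(TPM + 1) of 6 cell death genes against the macrophage score, 1 point per mouse, AKO in red and WT in blue. Bax, Bcl2l11, Mcl1, Pycard and Casp1 are high in AKO mouse 9 (score 7.66) and lowest in WT mouse 4 (score 5.99), with WT mouse 3 beside AKO mouse 3, while Tnfrsf1a stays near level.

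The deposited tables have 1 row per transcript, without saying which transcript it is and numbered here in file order, and the 39 genes had 253 rows. Of these, 100 rows reached the filter and 0 passed an FDR of 0.05 between the groups, where 0.0210% of 33323 rows did. At an unadjusted p below 0.05 there were 3 of 100, in Gsdmd, Trp53 and Casp12, against 5.56% of all rows. Groups did not overlap for 2 of the 100 rows, both with AKO above, against 3.05% of all rows. Row 5 of Gsdmd had 7.57, 7.24, 9.80 and 10.2 TPM in AKO mice, against 6.83, 3.37, 2.75 and 3.05 TPM in WT mice, a log2 difference of 1.01 (SE 0.24, limma FDR = 0.747 over all rows). This row held 23.3% of Gsdmd's total. Its largest row, with 58.5%, had 20.1, 14.7, 20.6 and 14.9 TPM in AKO mice and 15.2, 16.6, 11.7 and 13.9 TPM in WT mice.

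Row 2 of Trp53 had 4.58, 2.81, 5.39 and 4.54 TPM in AKO mice, against 2.28, 2.01, 1.91 and 2.59 TPM in WT mice, a log2 difference of 0.72 (limma FDR = 0.796 over all rows). Row 1 and row 3 of Trp53 traded places from mouse to mouse. Row 1 ranged from 1.39 to 32.6 TPM over the 8 mice and row 3 from 0.550 to 27.2 TPM, while their sum ranged only from 23.3 to 35.4 TPM. In all, 41 rows in 20 of the genes were listed at 0 in 1 mouse and at 1 TPM or more in another.

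**Figure D5:**
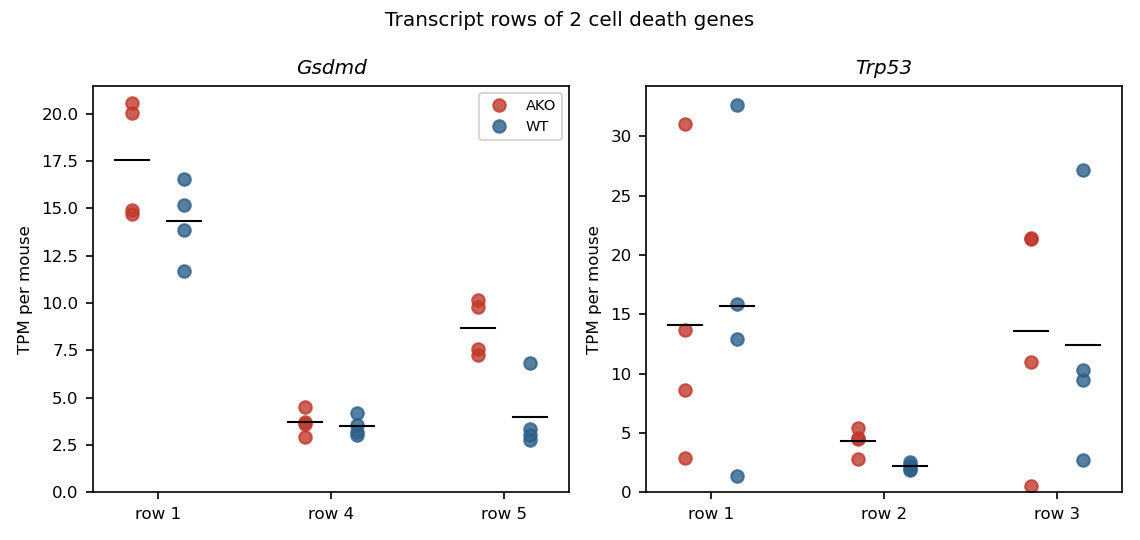
TPM per mouse in the tested transcript rows of Gsdmd (left) and Trp53 (right), AKO in red to the left of WT in blue, with a black line at each group mean. Row 5 of Gsdmd and row 2 of Trp53 separate the groups, and rows 1 and 3 of Trp53 lie anywhere from 0.550 to 32.6 TPM.

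Other genes of the death pathways, taken from lists by role, gave no genotype call (0.0282% of all genes had one) and 19 calls on the macrophage score. All of these calls were rising except that of Bnip3, where 12% of all genes rose and 4.40% fell. Of 12 further BCL2 family genes 9 were tested, and Bcl2a1b rose by 1.37 (limma FDR = 0.000192) and Bcl2a1d by 0.86 (limma FDR = 0.00889) log2 units per unit of score. These encode the guard A1 and are near-identical copies, so the split between them is uncertain. Bcl2a1b had 77.2, 67.8, 113 and 52.02 TPM in AKO mice, against 42.5, 71.7, 17.7 and 35.5 TPM in WT mice (log2 difference 0.98, unadjusted p = 0.0359, limma FDR = 0.831). Bnip3, a hypoxia-induced gene of mitochondrial removal, fell with the score (slope -0.73, limma FDR = 0.0356).

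Of 14 other execution genes 13 were tested and 4 rose with the score, the mitochondrial protease gene Htra2 by 0.55, the DNA repair gene Parp1 by 0.28, Birc5 by 1.54 and Naip2 by 0.89. Naip2, an inflammasome sensor gene, has close paralogs and its total is uncertain. Birc5, which encodes survivin, is also a gene of dividing cells. Of 15 death ligand and receptor genes 14 were tested and 2 rose, Tnfrsf1b, the second TNF receptor gene, by 0.91 and the ligand gene Tnfsf12 by 0.85. Of 11 lytic death genes 9 were tested and 3 rose, the DNA sensor gene Aim2 by 0.91, the inflammasome gene Nlrc4 by 0.84, and Ninj1, whose product ruptures the membrane of dying cells, by 0.35. The share of all genes that rose was 12%. Without WT mouse 3, 6 of the 19 calls over these lists and the lists of the next paragraph were kept, and without WT mouse 4, 9 were. Bcl2a1b, Tnfsf12, Tnfrsf1b, Plk2, Mfge8 and Lrp1 kept their call whichever mouse was left out.

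Of 19 other p53 targets 18 were tested, and 2 rose with the score, Plk2 by 0.99 and Sesn1 by 0.46, where 12% of all genes rose. Their slopes were mostly the other way, with 12 of 18 negative and a median of -0.055 against 0.043 over all genes. Over all genes 55.9% of slopes were positive. Of 12 genes for the clearance of dead cells 11 were tested and all 11 had a positive slope, against 55.9% of all genes. Past the threshold were 5 of the 11, where 12% of all genes rose. These were the receptor genes Axl (0.61), Stab2 (1.62) and Lrp1 (0.66), the bridging protein gene Mfge8 (0.89) and the engulfment gene Elmo1 (0.51). Mfge8 was abundant, with 1694, 1219, 1891 and 1289.8 TPM in AKO mice and 1334, 1762, 725 and 1237 TPM in WT mice. Dock1, the partner of ELMO1, had 18.1, 16.9, 17.8 and 16.4 TPM in AKO mice, below the 18.9, 19.1, 19.1 and 19.4 TPM of WT mice without overlap (log2 difference -0.14, limma FDR = 0.831). Of the other pathway genes tested, only Dock1 had groups without overlap, where 2.44% of all genes had this in either direction and 1.33% with AKO below.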

How the data were processed

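Each library's deposited table pairs gene identifiers with TPM values made by the authors, over 152298 rows (tested on the files: each table sums to 1000000 within rounding, in steps of 0.01). Per the submitters' processing notes HISAT2, DESeq2 and mm9 (a mouse genome build) were used, with neither role nor version. No source used here gives the quantifier, its annotation or its strand setting. The unit keeps no depth, so no counting interval is given. Libraries were made with the TruSeq RNA kit, per the labels' protocols, and no batch is labelled.

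Rows were summed per gene, leaving out 401 rows without a gene identifier (0.605% to 0.943% of TPM). Identical libraries were looked for, and 0 pairs were found. Log2(TPM + 1) was fitted with limma 3.58.1 in R 4.3.3 (mean-variance trend) for genes, and for rows at 1 TPM or more in at least 4 mice. This scale understates changes of low genes. P-values cover the spread between 4 and 4 separate mice. The slope fit added the macrophage score beside genotype. Correlations used all 40320 pairings, two-sided. Both fits were tested on simulated data. At a true effect of 0.5 log2 units, 56% of genotype differences and 30% of slopes were recovered at the threshold. At 1 log2 unit these shares were 93% and 78%. The simulated noise left out variation that followed the macrophage score, so the genotype fit met less spread than in the data. Intervals are at the 95% level.

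The genes, lists and tests were chosen with earlier results of these data known. Values of every mouse are given for genes past the threshold or without overlap, for the 12 smallest p of each test, and for the highest and lowest of each role group. Other pathway genes are named where they passed the threshold. Dock1 and the rows of Gsdmd and Trp53 were singled out after their values were seen. The design listed an exact permutation test of summed values, which is not used because the genes were chosen with results known. GENCODE M21 gave exon overlaps and near-identical stretches, which are not listed for every gene, and RefSeq on GRCm38.p6 gave promoters. Neither was used to place the mm9 values. Alternatives were another pseudocount (0.1), scaling, filter, gene value, spread estimate or score, leaving out mitochondrial genes, and leaving out each mouse.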

Additional observations from a re-analysis of the deposited data

Results flagged for a closer look

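In 3 of the 78 groups of 4 mice examined (39 genes in AKO and in WT), 1 mouse stood apart from the other 3 by more than Dixon's 95% critical share of the group's whole range, which chance passes in about 1 of 20 groups. Bid in AKO mouse 3 was 10.67 TPM, and the other AKO mice had 7.24 to 7.72 TPM. Bcl2 in AKO mouse 8 was 5.73 TPM, with the other AKO mice between 4.75 and 4.90 TPM. Casp9 in WT mouse 3 was 19.29 TPM, with the other WT mice between 13.59 and 14.53 TPM.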

How the results depend on the processing

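Between AKO and WT, 0 of the 38 genes passed an FDR of 0.05 under each alternative run. The log2 differences of the 12 genes followed kept their sign in all of them, except Pycard, which was -0.047 with the macrophage score as a covariate (chosen after seeing the data). Without WT mouse 4 the difference was 0.17 for Pycard, 0.28 for Casp1, 0.255 for Bcl2l11 and -0.11 for Bcl2, against 0.36, 0.46, 0.40 and -0.18 with all mice. Without WT mouse 3 it was 0.56 for Pycard, 0.70 for Casp1 and 0.16 for Bmf, and without AKO mouse 3 it was 0.14 for Bmf, against 0.24 with all mice. With the row of highest mean it was -0.020 for Cflar, 0.27 for Gsdmd and 0.15 for Apaf1, against -0.15, 0.44 and 0.28. Over all genes, 5 were higher with a pseudocount of 0.1, and leaving out 1 mouse gave 1 to 3 higher and 0 to 2 lower.

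The slopes on the macrophage score kept their sign under each alternative for the 12 genes followed, but the counts of calls moved, and the cause was not tested. The count of rising genes, 11 of 38, was 7 with the lipid-associated macrophage score (which shares Lpl and Cd36 with fat cells), against 8.45% of all genes. It was 6 of 39 with no filter, against 3.68% of all genes, and 5 with the row of highest mean (4 of them among the 11), against 7.96%. Without 1 mouse it was 0 to 12. Falling genes among the 38 numbered 2 without the genotype term, 1 against the adipocyte score, 2 with the row of highest mean and 1 with median-ratio scaling. Over all genes, rising calls numbered 1079 with no filter, 1080 with the row of highest mean and 490 to 1934 without 1 mouse. Falling calls over all genes numbered 411 with the lipid-associated score, 261 with no filter, 246 with the row of highest mean and 54 to 807 without 1 mouse. The row of highest mean and median-ratio scaling were added for the slope after seeing the data.

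Of all rows, with no filter 0 were higher and 0 lower in limma (4045 at an unadjusted p below 0.05), and without 1 mouse 0 to 2 were higher and 0 to 1 lower. No paired analysis was possible because the groups share only the number 3, on different animals.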
